A study of Mus musculus with 18 samples.

Results

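The genes described are 39 symbols of the cell cycle and of DNA replication, chosen by name and not by their values. Of these, 37 were on the measured panel of 23930 genes. Ccnb1 and Pcna were not on it under those symbols and are not analysed here. The 37 were split into 5 regulators of the G1 to S transition, 10 genes of S phase and 22 genes of mitosis. A gene was tested where it reached 1 CPM (its reads, scaled to the same library size in every sample) in at least 3 libraries, as 11720 genes of the panel did. Of the 37, 28 passed: 4 regulators, 10 S phase genes and 14 mitosis genes.

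RNA was measured in whole liver of mice that all carried floxed Yap alleles (Yap fl/fl), with 18 libraries in 6 groups of 3. An adeno-associated virus (AAV) with the TBG promoter, which is active in hepatocytes, was given at 8 weeks of age. Control mice received AAV-TBG-GFP at 2 (genome copies per mouse, to be read with an exponent of 11), overexpression mice AAV-TBG-YAP-P2A-EGFP at 2, and knockout mice AAV-TBG-Cre at 0.5 in the same unit, so the knockout dose of virus was lower than that of its control. The diet began 2 weeks later with 5 days on Lieber-DeCarli control liquid. It went on for 4 weeks as ethanol liquid (EtOH) or as the control liquid (pair-fed), and ended with 1 gavage 9 hours before the mice were killed, which held ethanol for the EtOH groups (33% v/v, 5 g per kg) and maltose-dextrin for the others. YAP is the coactivator through which the Hippo pathway sets cell number, and the design asks how its loss or gain in hepatocytes changes the liver under ethanol. The promoter targets hepatocytes, and Yap in other liver cells was not measured separately.

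The labels do not say whether the libraries of a group came from separate animals, so p-values measure the spread between these libraries. A library held 4680152 to 5806228 reads, so that 1 read was worth 0.172 to 0.214 CPM. The Yap1 amplicon, whose place relative to the floxed exon is not stated, gave 3.34 to 15.1 CPM in the 6 knockout libraries and 51.5 to 66.6 CPM in the 6 control libraries. In the libraries labelled overexpression it gave 106 to 144 CPM with ethanol and 155 and 214 CPM in pair-fed replicates 2 and 3. The library labelled overexpression pair-fed replicate 1 gave 57.6 CPM, inside the range of the controls, which by itself goes against its label. Its summed YAP target genes, at 244 CPM, lay above all control libraries instead (175 to 213 CPM pair-fed, 122 to 144 CPM with ethanol). Whether its label is right was not tested. Xist, transcribed from the inactive X chromosome, was at 348 to 423 CPM in all 3 knockout pair-fed libraries and in control pair-fed replicates 2 and 3, and at 0 to 2.75 CPM in the other 13, where the Y-linked Ddx3y was at 54.0 to 129 CPM. Diet and this pattern therefore cannot be told apart within the knockout, and within the control only replicate 1 of the pair-fed group matches the ethanol group. The hepatocyte marker Alb was at 23604 to 54184 CPM in all libraries, so the label liver has its defining marker.

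A cell enters division when cyclin D with its kinases, and then cyclin E, inactivates the RB family and frees the E2F factors. E2F targets then supply the helicase, the nucleotides and the polymerases of S phase. A later wave of genes, held back in resting cells by the DREAM complex and driven by MYBL2 and FOXM1, builds the mitotic spindle and drives the cell through division. The adult liver is almost entirely at rest, hepatocytes re-enter the cycle after injury or loss of tissue, and excess YAP is known for pushing hepatocytes to divide and for enlarging the liver. Nucleotide enzymes such as thymidine kinase and ribonucleotide reductase also serve DNA repair outside S phase, so the 10 S phase genes are not markers of replication alone.

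E2F elements are known from promoters of the first wave and CHR elements from those of the second. The promoters printed here are those of the genes on which the results turn, Tk1 and Rrm2, which moved in opposite directions with ethanol, Mcm6 for the helicase, and Ccnb2 and Cdk1 for mitosis. Each is the 250 bases before the start of the gene, 5′ to 3′ on the strand of the gene, from RefSeq on GRCm38.p6. Capitals mark matches to an E2F-type element, spelled TTTGGCG with the searched variants TTTCCCG as well as TTTCGCG and in addition TTTGCCG, to the cell cycle homology region or CHR, spelled TTTGAA or in a variant form TTCGAA, or to a CCAAT box, on either strand, where neighbouring matches may overlap.
Tk1, chr11:117826015-117826264, minus strand: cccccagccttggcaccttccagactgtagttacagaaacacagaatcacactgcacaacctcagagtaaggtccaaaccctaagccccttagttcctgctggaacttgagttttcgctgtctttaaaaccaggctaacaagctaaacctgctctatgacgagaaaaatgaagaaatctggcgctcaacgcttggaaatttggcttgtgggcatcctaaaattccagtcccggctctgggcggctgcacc
Rrm2, chr12:24708004-24708253, plus strand: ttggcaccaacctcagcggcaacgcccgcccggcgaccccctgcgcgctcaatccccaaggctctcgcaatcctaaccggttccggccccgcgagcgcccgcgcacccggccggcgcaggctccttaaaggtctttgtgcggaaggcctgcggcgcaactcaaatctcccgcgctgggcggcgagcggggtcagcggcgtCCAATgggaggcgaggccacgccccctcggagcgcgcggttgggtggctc
Mcm6, chr1:128359706-128359955, minus strand: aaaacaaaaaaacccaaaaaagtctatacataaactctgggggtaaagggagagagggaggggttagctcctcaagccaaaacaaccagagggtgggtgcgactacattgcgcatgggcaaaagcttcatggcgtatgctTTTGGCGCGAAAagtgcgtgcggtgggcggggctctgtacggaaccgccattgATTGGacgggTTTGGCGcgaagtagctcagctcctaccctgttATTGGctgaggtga
Ccnb2, chr9:70421555-70421804, minus strand: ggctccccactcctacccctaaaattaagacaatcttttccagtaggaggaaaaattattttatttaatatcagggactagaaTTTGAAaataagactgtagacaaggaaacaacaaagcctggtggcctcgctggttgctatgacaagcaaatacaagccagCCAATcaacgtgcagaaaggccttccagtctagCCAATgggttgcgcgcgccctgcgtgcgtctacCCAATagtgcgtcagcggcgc
Cdk1, chr10:69352913-69353162, minus strand: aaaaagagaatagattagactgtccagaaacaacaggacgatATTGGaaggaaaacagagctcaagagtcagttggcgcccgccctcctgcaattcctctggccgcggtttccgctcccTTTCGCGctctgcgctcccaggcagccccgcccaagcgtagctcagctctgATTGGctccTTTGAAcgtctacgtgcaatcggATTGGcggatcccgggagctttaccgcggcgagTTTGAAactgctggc

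Promoters of 28 of the 37 genes were in the table used. A CHR stood in 9 of 17 mitosis promoters (52.9%) and in 2 of 9 S phase promoters (22.2%), beside 17.4% of all 27025 promoters. An E2F-type element stood in 3 of 9 S phase promoters (33.3%), those of Mcm5, Mcm6 and Mcm7, in 3 of 17 mitosis promoters (17.6%), and in 5.63% of all promoters. CCAAT boxes were in 15 of 17 mitosis promoters (88.2%), 7 of 9 S phase promoters (77.8%) and 34.5% of all. CATTCC, the core read by TEAD, the DNA-binding partner of YAP, was in 2 of 17 mitosis promoters (11.8%), 1 of 9 S phase promoters (11.1%) and 12.6% of all. The window printed for Tk1 held none of these letters, and that for Rrm2 held a CCAAT box alone. A match is a description of the sequence and not a measured binding site.

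Expression of these genes was low. Of the 22 mitosis genes, 8 were not tested (Aurkb, Bub1, Tpx2, Kif11, Cenpe, Cenpf, Nusap1 and Stmn1), with 2 to 47 reads over all 18 libraries together. Their highest value in any library was 2.61 CPM (Tpx2, a spindle assembly factor). Foxm1, the transcription factor of the mitotic wave, had 16 reads in all, was read in 8 of 18 libraries and reached at most 0.574 CPM (control pair-fed replicate 3). A tested gene could pass through a group in which it was high, so the counts given here for the 28 describe those genes and not the whole list. Each gene has 1 amplicon of unknown efficiency, so levels are compared between samples and not between genes.

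Ethanol lowered Tk1, thymidine kinase, which salvages thymidine for DNA synthesis. In the control genotype Tk1 stood at 34.1, 41.6 and 53.5 CPM in the pair-fed libraries and at 8.73, 13.1 and 12.8 CPM in the ethanol libraries. All 3 ethanol libraries lay below all pair-fed ones, including pair-fed replicate 1, which shares their Ddx3y pattern. The log2 fold change was -1.81 ± 0.33 (SE, n = 3 and 3, limma, Benjamini-Hochberg adjusted p = 0.00805). In the knockout Tk1 stood at 33.2, 53.6 and 46.0 CPM pair-fed and at 3.85, 6.31 and 8.34 CPM with ethanol. These groups lay furthest apart of the 3 genotypes for Tk1, at a log2 fold change of -2.68 ± 0.33 (limma adjusted p = 0.000128). With overexpression Tk1 stood at 25.6, 17.9 and 34.7 CPM pair-fed and at 16.8, 8.29 and 5.86 CPM with ethanol. Those groups did not overlap either, and the log2 fold change of -1.33 ± 0.33 missed the threshold (limma adjusted p = 0.0561). Averaged over the genotypes, Tk1 fell by 1.94 ± 0.19 on the log2 scale (limma adjusted p = 4.57e-06). Whole liver was measured, so that fewer cells with a transcript and less transcript per cell cannot be told apart here or in any later result.

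**Figure D1:**
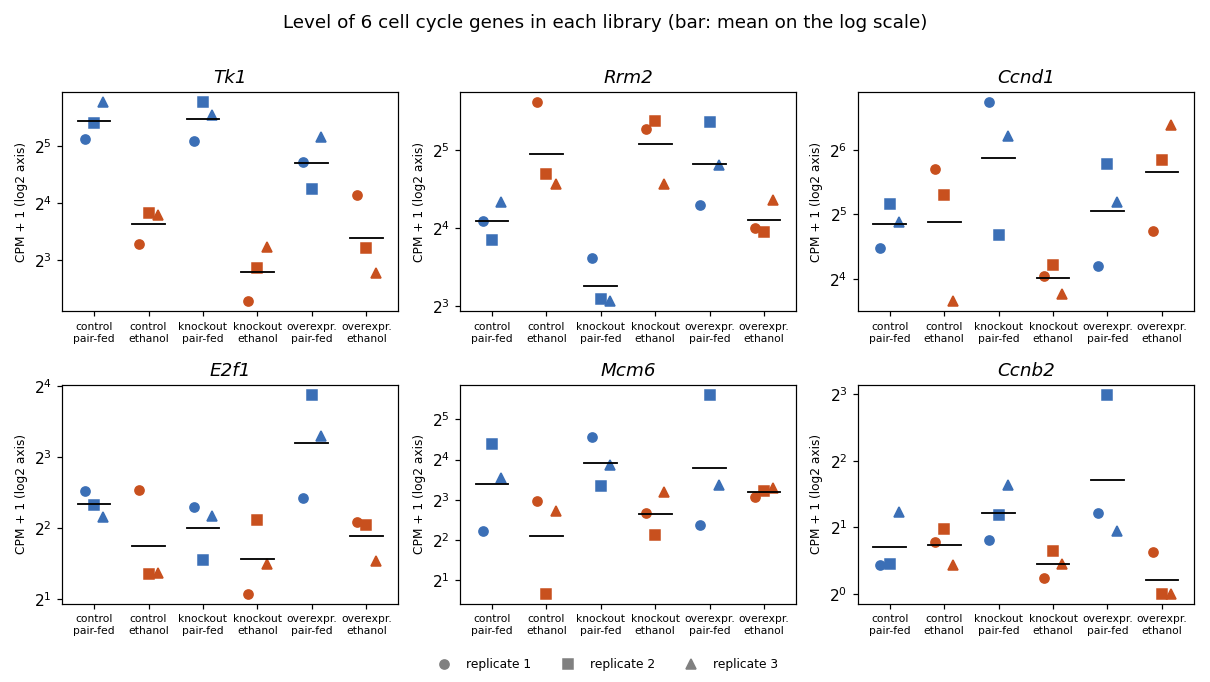
Level of 6 genes in each of the 18 libraries, as CPM + 1 on a log2 axis, with 1 panel per gene, groups along the x axis, a symbol for each replicate and a bar at the mean on the log scale (blue pair-fed, orange ethanol). Tk1 is lower with ethanol in all 3 genotypes, Rrm2 is higher with ethanol in control and knockout and not with overexpression, and replicate 2 of the overexpression pair-fed group is the highest library for E2f1, Mcm6 and Ccnb2.

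Rrm2, the small subunit of ribonucleotide reductase, which makes deoxynucleotides from ribonucleotides, went the other way in the knockout. It stood at 11.2, 7.48 and 7.32 CPM in knockout pair-fed libraries and at 37.5, 40.5 and 22.7 CPM with ethanol. The groups did not overlap, with a log2 fold change of 1.82 ± 0.31 (limma adjusted p = 0.00142). In the control genotype it stood at 15.9, 13.3 and 19.1 CPM pair-fed and at 47.7, 24.7 and 22.6 CPM with ethanol, which did not overlap, with a log2 fold change of 0.87 ± 0.31 that was not called (limma adjusted p = 0.138). With overexpression it stood at 18.6, 40.0 and 27.0 CPM pair-fed and at 14.99, 14.4 and 19.5 CPM with ethanol. These groups overlapped, and the log2 fold change was -0.72 ± 0.31 (limma adjusted p = 0.281). The response of the overexpression livers minus that of the knockout livers was -2.54 ± 0.43 (limma adjusted p = 0.0085), a contrast added after the values had been seen. Without the library that stands apart and the library labelled overexpression pair-fed replicate 1, it was -2.53. That value rests on a single overexpression pair-fed library, so no test is given for it. With all libraries, Rrm2 was the only member called in this contrast, where 1.05% of all genes were called. Against the control genotype the difference in response was -1.58 ± 0.43 for overexpression (adjusted p = 0.281) and 0.95 ± 0.43 for the knockout (adjusted p = 0.864), neither called.

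Rrm1, the large subunit of the same enzyme, did not follow Rrm2. It stood at 9.45, 12.2 and 6.89 CPM in control pair-fed libraries and at 6.24, 5.79 and 5.21 CPM with ethanol, a log2 fold change of -0.61 ± 0.28 (limma adjusted p = 0.262). In the knockout it stood at 17.7, 9.40 and 9.23 CPM pair-fed and at 8.43, 9.65 and 12.1 CPM with ethanol, which overlapped. With overexpression it stood at 8.33, 14.6 and 10.8 CPM pair-fed and at 6.68, 5.34 and 8.96 CPM with ethanol, with an overlap of the lowest pair-fed library. Averaged over the genotypes it fell by 0.47 ± 0.16 on the log2 scale, just past the threshold (limma adjusted p = 0.0476), while Rrm2 rose by 0.66 ± 0.18 (limma adjusted p = 0.0133). The Rrm1 call was lost in 9 of 11 alternative settings and when any of 12 single libraries was left out.

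Mcm2 to Mcm7 encode the 6 subunits of the replicative helicase, which is loaded at origins before S phase. Mcm7 had the most reads of the 6 and was steady, at 20.8, 19.3 and 15.9 CPM in control pair-fed libraries and at 18.7, 14.7 and 21.3 CPM with ethanol. Knockout libraries were at 24.6, 22.2 and 19.2 CPM pair-fed and at 19.2, 21.0 and 21.4 CPM with ethanol. With overexpression it was at 22.2, 36.9 and 26.4 CPM pair-fed and at 18.6, 26.5 and 20.5 CPM with ethanol. No ethanol contrast called Mcm7, with log2 fold changes of -0.04, -0.09 and -0.35 (SE 0.21 each). Mcm6 spread far more within groups, at 3.68, 19.9 and 10.7 CPM in control pair-fed libraries and at 6.77, 0.579 and 5.55 CPM with ethanol. It averaged -1.04 ± 0.40 on the log2 scale with ethanol and missed the threshold (limma adjusted p = 0.0672), while edgeR called it (adjusted p = 0.0361), as it did 20.7% of all genes. Tyms, thymidylate synthase, was between 12.3 and 27.3 CPM in all libraries, with an averaged ethanol log2 fold change of 0.03 ± 0.13.

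Among the regulators of entry into S phase, Ccnd1, cyclin D1, which binds CDK4 and CDK6, fell with ethanol in the knockout. It stood at 105, 24.6 and 73.2 CPM in knockout pair-fed libraries and at 15.6, 17.6 and 12.7 CPM with ethanol. The 2 high pair-fed libraries were also above every control pair-fed library, and the log2 fold change was -1.86 ± 0.53 (limma adjusted p = 0.033). The control genotype stood at 21.4, 34.9 and 28.7 CPM pair-fed and at 51.0, 38.2 and 11.6 CPM with ethanol, a wide overlap with a log2 fold change of 0.04 ± 0.53. Overexpression stood at 17.4, 53.9 and 35.4 CPM pair-fed and at 25.8, 56.2 and 82.3 CPM with ethanol, which overlapped as well (0.60 ± 0.53). Summed Kupffer cell markers also fell in the knockout, from 604 to 753 CPM pair-fed to 234 to 278 CPM with ethanol (9 of 11 tested markers called lower), and their part in the knockout results was not tested. The knockout call of Ccnd1 was lost when either of the pair-fed replicates 1 and 3 or any ethanol library of the knockout was left out, with a log2 fold change of -1.43 (adjusted p = 0.12) without pair-fed replicate 1. With ethanol, all 3 overexpression libraries lay above all knockout libraries, and the difference of 1.64 ± 0.53 was not called (limma adjusted p = 0.128).

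E2f1, the activating E2F factor, was at 4.73, 4.01 and 3.44 CPM in control pair-fed libraries and at 4.81, 1.55 and 1.56 CPM with ethanol. In the knockout it was at 3.92, 1.92 and 3.48 CPM pair-fed and at 1.10, 3.34 and 1.81 CPM with ethanol. With overexpression it was at 4.35, 13.7 and 8.80 CPM pair-fed and at 3.25, 3.13 and 1.90 CPM with ethanol, the only genotype in which its groups did not overlap. Averaged over genotypes it fell by 0.78 ± 0.22 on the log2 scale (limma adjusted p = 0.0194). Ccne1, cyclin E1, ranged from 0 to 3.99 CPM with no order by group. Its ethanol log2 fold changes of 0.55, -0.08 and -0.52 (SE 0.54 each; control, knockout, overexpression) were not called. Ccne2, cyclin E2, ranged from 0 to 2.84 CPM and was not called in any contrast.

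The 3 mitosis genes with the most reads were not called for diet in the control. Ect2, which places the cleavage furrow, was at 2.63, 2.01 and 4.40 CPM in control pair-fed libraries and at 2.85, 1.93 and 4.34 CPM with ethanol. Kif20a, a kinesin of the central spindle, was at 2.45, 2.37 and 1.91 CPM pair-fed and at 3.39, 1.74 and 0.868 CPM with ethanol. Ccna2, cyclin A2, which acts in S phase and in G2, was at 0.525, 1.10 and 2.30 CPM pair-fed and at 3.74, 2.51 and 1.56 CPM with ethanol. All 3 overlapped, with log2 fold changes of 0.01 ± 0.38, -0.20 ± 0.45 and 0.67 ± 0.43. Ccnb2, a B-type cyclin of the mitotic kinase, was the only mitosis gene that limma called in any contrast at the settings used throughout. edgeR called Birc5, or survivin, as well in the averaged contrast (-1.27, adjusted p = 0.0334), where limma gave -0.74 ± 0.27 (adjusted p = 0.0599). Ccnb2 reached 1 CPM in 5 libraries, all of them pair-fed, so it passed the filter only through the diet in which it was high. Averaged over genotypes Ccnb2 fell by 0.75 ± 0.24 on the log2 scale (limma adjusted p = 0.0355), a value that describes this gene alone.

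Ccnb2 stood at 0.350, 0.365 and 1.34 CPM in control pair-fed libraries and at 0.713, 0.966 and 0.347 CPM with ethanol, so the control genotype carried none of that fall (0.02 ± 0.42). In the knockout it stood at 0.747, 1.28 and 2.09 CPM pair-fed and at 0.183, 0.557 and 0.363 CPM with ethanol, without overlap. With overexpression it stood at 1.33, 6.96 and 0.917 CPM pair-fed and at 0.542, 0 and 0 CPM with ethanol, also without overlap (-1.51 ± 0.42, limma adjusted p = 0.0834). The highest of these values rests on 40 reads, and the ethanol libraries of that genotype held 3, 0 and 0 reads. The averaged call was lost when any of 7 single libraries was left out, and it remained in 6 of 10 other settings.

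By comparison, ethanol called 1 of 28 tested members in the control (Tk1), where 2.7% of all genes were called. It called 3 of 28 in the knockout (Tk1 and Ccnd1 lower, Rrm2 higher), where 9.9% of all genes were called, and 0 of 28 with overexpression, where 1.15% were. The 0 came from limma, and edgeR also called 0 (1.14% of all genes). An unadjusted limma p under 0.05 was reached by 10 of 28 members and by 1704 of all 11720 genes. Averaged over genotypes, limma called 5 of 28 (Tk1, Rrm1, E2f1 and Ccnb2 lower, Rrm2 higher), beside 20.5% of all genes. Of these 5, Ccnb2 passed the filter only through pair-fed libraries. Of all genes, 845 were called higher and 1561 lower there on the deposited scale, and 1298 higher and 1108 lower after TMM scaling, so the excess of falls among all genes depends on the scaling. The 5 members kept their signs under TMM and quantile scaling, where Rrm1 was no longer called. The share of members called was close to that of all genes in the control, the knockout and the averaged contrast. With a term for the Xist pattern, Tk1 remained called in the averaged contrast (-1.69, limma adjusted p = 0.0238) and no other member did, and no member was called in the control or the knockout. That term rests on 1 control library against 2.

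Counting groups with no overlap between 3 and 3 libraries, ethanol put 1 of 28 members higher in the control (Rrm2; 7.69% of all genes) and 2 lower (Rrm1 and Tk1; 14.4%). In the knockout it put 1 higher (Rrm2; 11.7%) and 5 lower (Ccnd1, Mcm6, Tk1, Mki67 and Ccnb2; 16.9%). With overexpression it put 0 higher (7.83%) and 8 lower (14.6%). Those 8 were E2f1, Tk1 and the mitosis genes Top2a, Ccnb2, Cdk1, Birc5, Bub1b and Cdc20. The counts in control and knockout were close to or below the share of all genes, and that of falls with overexpression was above it. The falls in the knockout and with overexpression include Ccnb2, which passed the filter only through pair-fed libraries. Several of those 8 falls rest on few reads. The lowest pair-fed and the highest ethanol library both held 5 reads for Top2a and for Bub1b, parted only by library size. Which libraries were lowest and highest differed from gene to gene. The lowest pair-fed and the highest ethanol library held 9 and 8 reads for Cdk1, 5 and 3 for Ccnb2, 3 and 1 for Cdc20, and 11 and 8 for Birc5. For E2f1 they held 23 and 18 reads, and for Tk1 103 and 93.

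**Figure D2:**
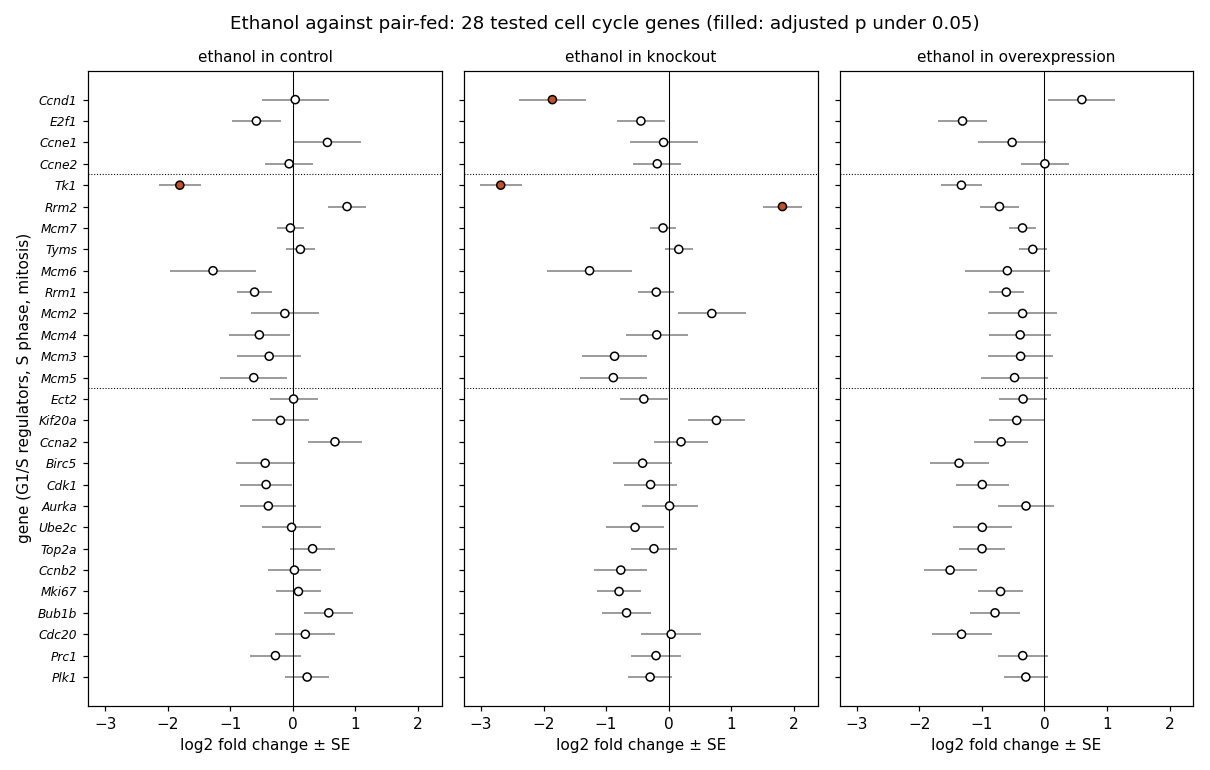
Log2 fold change of ethanol against pair-fed on log2(CPM + 1), with its SE, for each of the 28 tested genes in the 3 genotypes, ordered by class (regulators, S phase, mitosis, separated by dotted lines), with filled points for an adjusted p under 0.05. In the control the mitosis genes lie on both sides of 0, and with overexpression all 14 lie below it.

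Split into classes, the median log2 fold change of the 10 S phase genes with ethanol was -0.46 in the control, -0.19 in the knockout and -0.43 with overexpression, beside -0.09, -0.05 and -0.07 for all genes. The median of the 14 mitosis genes was 0.02, -0.29 and -0.75 in the same order. All 14 mitosis genes and all 10 S phase genes had a negative sign with overexpression. The counts changed with the pair-fed libraries included. Without replicate 2, 10 of 14 mitosis genes were negative (median -0.39), and 4 of 10 S phase genes (median 0.06). Without the library labelled overexpression pair-fed replicate 1, whose Yap1 level is that of a control, the medians were -0.96 and -0.95. Without both, 12 of 14 mitosis genes (median -0.48) and 9 of 10 S phase genes (median -0.47) were negative. A single overexpression pair-fed library was then left, and these signs and medians rest on it.

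Replicate 2 of the overexpression pair-fed group stood apart from the other 17 libraries for these genes. It was the highest of all 18 libraries for 21 of the 37 genes (14 of 22 mitosis genes, 6 of 10 S phase genes and E2f1), and for 19 of the 28 tested. For all tested genes it was the highest library in 11.5%. The 22 mitosis genes together had 498 reads there, or 86.6 CPM (95% Poisson interval 79.2 to 94.6, counting error only), and 13.4 to 40.6 CPM in the other 17. The other libraries of its group were at 16.7 CPM (replicate 1) and 22.2 CPM (replicate 3), within the range of the controls, whose pair-fed libraries were at 14.2 to 25.1 CPM.

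**Figure D3:**
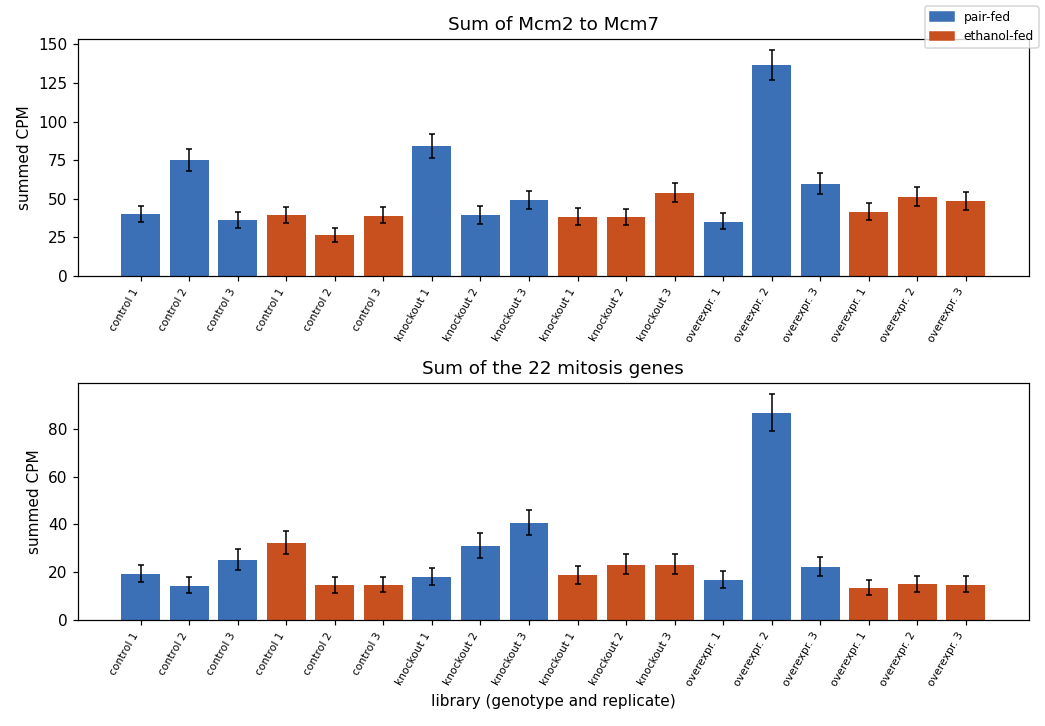
Summed CPM of the 6 helicase genes (top) and of the 22 mitosis genes (bottom) in each of the 18 libraries, as bars from 0 with 95% Poisson intervals of the summed reads, blue for pair-fed and orange for ethanol. Overexpression pair-fed replicate 2 is the highest bar in both panels, and knockout pair-fed replicate 1 and control pair-fed replicate 2 are high for the helicase alone.

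The genes named next were chosen for their values in that library. Cdk1, the kinase that starts mitosis, was at 8.35 CPM (48 reads) there and at 0.193 to 2.96 CPM in the other 17. Cdc20, which activates the anaphase-promoting complex, was at 6.26 CPM (36 reads) against 0 to 1.48 CPM. Birc5, of the chromosomal passenger complex, was at 10.1 CPM (58 reads) against 0.373 to 4.70 CPM. Each of these lay far above every other library. Kif20a was at 10.3 CPM against 0.747 to 4.58 CPM. Top2a, the topoisomerase that untangles sister chromatids, was at 4.70 CPM against 0.365 to 2.44 CPM. Ube2c, the ubiquitin-conjugating enzyme that works with the anaphase-promoting complex, was at 6.61 CPM against 0.368 to 3.48 CPM. By contrast Mki67, the gene of the proliferation antigen Ki-67, was at 2.44 CPM, level with knockout pair-fed replicate 1 (2.43 CPM). Kif11, a spindle motor, had 1 read there, and Foxm1 had 1 read.

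The helicase genes were high in the same library, with a sum of 136 CPM (784 reads, 95% Poisson interval 127 to 146). Among them Mcm6 was at 48.0 CPM against 0.579 to 22.4 CPM in the other 17. The helicase sum was 26.3 to 83.8 CPM elsewhere, and it did not always go with mitosis. Knockout pair-fed replicate 1 had 83.8 CPM of helicase and 17.9 CPM of mitosis transcripts, and control pair-fed replicate 2 had 74.8 and 14.2 CPM. Knockout pair-fed replicate 3 had the second highest mitosis sum, 40.6 CPM, with 49.1 CPM of helicase. Tk1 was not high in the library that stood apart, at 17.9 CPM, the lowest of the 9 pair-fed libraries.

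Summed markers of 5 other liver cell types were also highest in that library. Cholangiocyte markers summed to 115 CPM there and to 16.5 to 48.2 CPM in the other 17. Most of this was Spp1, at 104 CPM, while Krt19, Krt7 and Cftr were at 1.04, 0.348 and 0.522 CPM. Stellate cell markers summed to 544 CPM against 279 to 449, endothelial markers to 584 CPM against 325 to 493, Kupffer cell markers to 783 CPM against 234 to 753, and lymphocyte markers to 12.5 CPM against 2.38 to 10.3. Within the Kupffer cell sum, Cd5l (277 CPM), Lyz2 (163 CPM), C1qb (62.6 CPM), Cd68 (47.8 CPM) and Adgre1 (20.5 CPM) were highest there. Other libraries were higher for Clec4f (111 CPM there), Vsig4 (59.6 CPM), Csf1r (34.1 CPM), Timd4 (3.30 CPM), Marco (2.26 CPM), C1qc and C1qa. Within the endothelial sum, Stab1 and Cdh5 were highest there, while other libraries were higher for Pecam1, Kdr, Stab2, Lyve1, Clec4g and Dnase1l3. Within the stellate cell sum, Reln, Col1a1, Col1a2 and Col3a1 were highest there, while other libraries were higher for Lrat, Des, Pdgfrb, Acta2 and Dcn. Of the lymphocyte markers, Cd8a, Cd4 and Nkg7 were highest there, and the rest were not. Neutrophil markers were not high, at 2.61 CPM against 1.10 to 44.4. Erythroid markers were at 111 CPM, inside the range of 14.96 to 177 CPM of the other 17. Hepatocyte markers were at 42908 CPM, near the low end of 41956 to 83998 CPM. YAP target genes summed to 294 CPM, against 112 to 263 CPM elsewhere and 244 to 263 CPM in the other libraries of its group. Their part in the result was not tested.

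**Figure D4:**
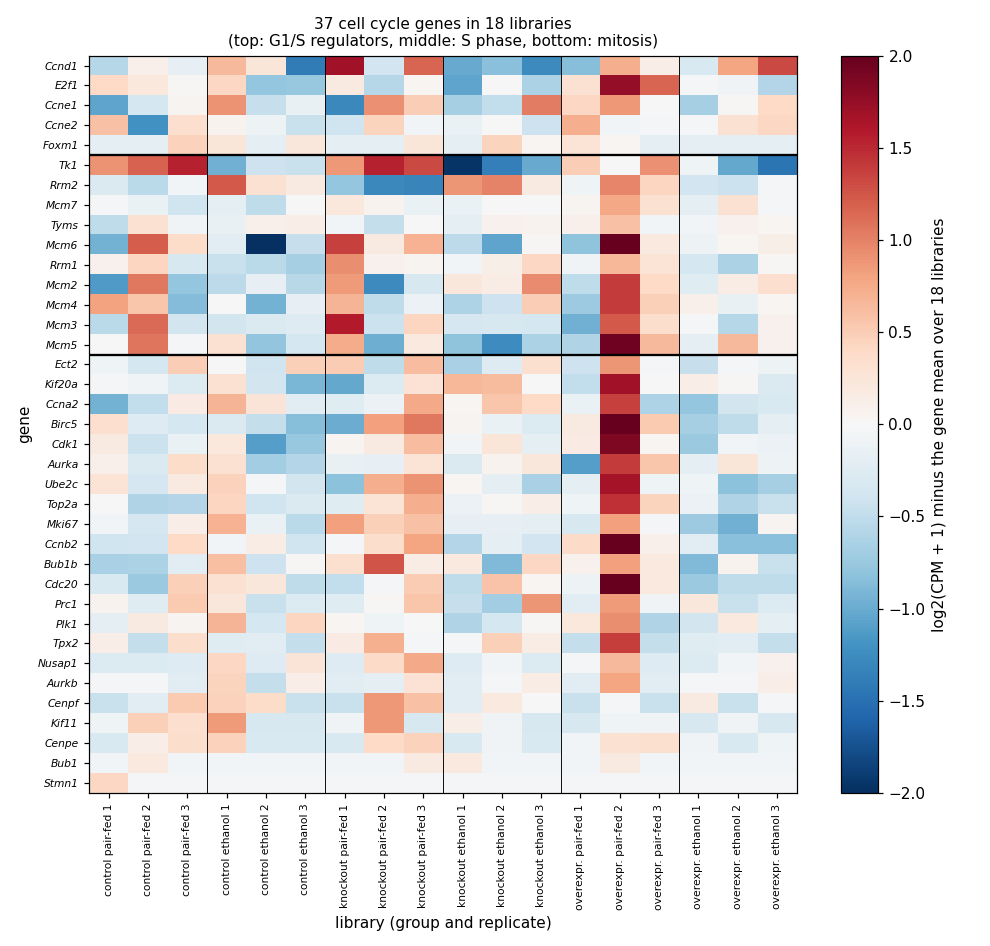
Level of the 37 genes in the 18 libraries as log2(CPM + 1) minus the mean of the gene over all libraries, with libraries ordered by group along the x axis and black lines between groups and between classes (regulators at the top, S phase in the middle, mitosis at the bottom). The column of overexpression pair-fed replicate 2 is red across most S phase and mitosis rows, and the Tk1 row is blue in ethanol columns.

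YAP overexpression against control on the pair-fed diet gave positive signs for 27 of 28 tested members, and limma called 0 of them, where 0.145% of all genes were called. An unadjusted limma p under 0.05 was reached by 8 of 28 and by 991 of all 11720 genes. edgeR called 0 of 28 (0.247% of all genes). Top2a had the smallest p, at 0.947, 4.70 and 1.83 CPM with overexpression against 1.05, 0.365 and 0.382 CPM in control, a log2 fold change of 1.01 ± 0.37 (limma adjusted p = 0.42). Mcm7 came next, with its 3 overexpression libraries above all control libraries and a log2 fold change of 0.56 ± 0.21 (adjusted p = 0.451). Bub1b, a kinase of the spindle checkpoint, also had no overlap, at 0.947, 2.26 and 1.10 CPM against 0.175, 0.182 and 0.574 CPM. These were 2 of 28 members higher without overlap, beside 6.27% of all genes, and 0 lower, beside 7.57%. The class medians were 0.58 for mitosis and 0.31 for S phase, and they moved with the pair-fed libraries included. Without replicate 2 they were -0.02 and -0.13, with 7 of 14 and 5 of 10 genes positive, and without replicate 1 they were 0.94 and 0.74. Without both they were 0.16 and 0.29, with 9 of 14 and 8 of 10 genes positive, values that rest on a single overexpression library. All 3 overexpression libraries had the Ddx3y pattern, while 2 of the 3 control pair-fed libraries had the Xist pattern, so this contrast is poorly matched on it. With a term for the Xist pattern the medians were 0.47 for mitosis and 0.69 for S phase.

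On the ethanol diet, overexpression against control called 0 of 28 by limma (0.102% of all genes) and 0 by edgeR (0.119%). An unadjusted limma p under 0.05 was reached by 1 of 28, Rrm2, and by 1036 of all 11720 genes. Rrm2 was lower in all 3 overexpression libraries, with a log2 difference of -0.85 ± 0.31 (limma adjusted p = 0.369). Ccna2 was lower as well, at 0.722, 1.29 and 1.38 CPM against 3.74, 2.51 and 1.56 CPM (-0.73 ± 0.43, adjusted p = 0.713). With Mcm6 higher, these were 1 of 28 higher without overlap (7.43% of all genes) and 2 lower (7.54%). The summed mitosis genes were at 13.4 to 14.9 CPM in the overexpression ethanol libraries, the narrowest range of the 6 groups, and at 14.4, 14.5 and 32.2 CPM in the control ethanol libraries.

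Knockout against control on the pair-fed diet called 0 of 28 by limma (0.00853% of all genes) and 0 by edgeR (0.00853%). An unadjusted limma p under 0.05 was reached by 367 of all 11720 genes and by 2 of the 28 members. These were Bub1b, at 1.31, 3.42 and 1.05 CPM in the knockout against 0.175, 0.182 and 0.574 CPM (1.08 ± 0.39), and Rrm2 (-0.83 ± 0.31), both with an adjusted p of 0.999. Mki67 was higher without overlap, at 2.43, 1.71 and 1.92 CPM against 0.875, 0.547 and 1.15 CPM, on 8 to 13 reads per knockout library. These made 2 of 28 higher without overlap (3.84% of all genes) and 1 lower (3.22%). All 3 knockout and 2 of the 3 control pair-fed libraries shared the Xist pattern, so this contrast is nearly matched on it.

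With ethanol, knockout against control called 0 of 28 by limma (0.0171% of all genes) and 0 by edgeR (0.0256%). An unadjusted limma p under 0.05 was reached by 978 of all 11720 genes and by 2 of the 28 members. Tk1 was lower in all 3 knockout libraries (-0.84 ± 0.33, limma adjusted p = 0.526), and Rrm1 was higher in all 3 (0.70 ± 0.28, adjusted p = 0.537). Mcm2 and Birc5 were also higher without overlap, which made 3 of 28 higher (8.23% of all genes) and 1 lower (5.21%). Overexpression against knockout with ethanol called 0 of 28 by limma (1.88% of all genes) and 0 by edgeR (1.86%). An unadjusted limma p under 0.05 was reached by 1804 of all 11720 genes and by 2 of the 28 members. The 2 were Rrm2 (-0.97 ± 0.31, adjusted p = 0.116) and Ccnd1. Higher without overlap were 2 of 28 (Ccnd1 and Mcm5; 8.94% of all genes) and lower were 3 (Rrm2, Top2a and Ccna2; 12.5%). The interaction of ethanol with the knockout and that with overexpression each called 0 of 28 and 0% of all genes by limma and by edgeR. In these 2 interactions 3 and 6 members had an unadjusted limma p under 0.05, as did 666 and 847 of all 11720 genes. These comparisons share their control libraries and are not independent of each other.

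Cdk1 was called in no contrast. It was at 1.93, 0.912 and 1.34 CPM in control pair-fed libraries and at 1.96, 0.193 and 0.521 CPM with ethanol. Knockout libraries were at 1.68, 1.92 and 2.96 CPM pair-fed and at 1.47, 2.04 and 1.27 CPM with ethanol. With overexpression it was at 1.89, 8.35 and 1.65 CPM pair-fed and at 0.542, 1.47 and 1.38 CPM with ethanol, a log2 fold change of -0.99 ± 0.42 (limma adjusted p = 0.275). Mki67 was at 2.14, 0.772 and 0.347 CPM in control ethanol libraries, at 0.733, 0.742 and 0.725 CPM in knockout ethanol libraries and at 0.181, 0 and 1.03 CPM in overexpression ethanol libraries. A count of 3 reads, the limit that a count of 0 allows, is 0.517 to 0.641 CPM, which is close to many of these values.

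Further genes of the same machinery, 98 tested genes in 6 lists, were counted for the averaged ethanol contrast, where 3 were called higher and 20 lower (7.21% and 13.3% of all genes on the same scale). Their median log2 fold change was -0.30, beside -0.07 for all genes. With a term for the Xist pattern none of the 23 averaged calls remained (limma adjusted p = 0.0527 for Spc24, 0.0921 for Cdkn1a and 0.212 for Lig1, for example), and every sign stayed. Of the 29 replication fork genes, 7 were called lower and 1 higher, with a median of -0.39. Among those called lower were Lig1, Pole, Pold2, Rfc2, Rfc3 and Hells.

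Lig1, DNA ligase 1, which joins Okazaki fragments, was at 6.72, 5.77 and 3.48 CPM in knockout pair-fed libraries and at 0.916, 0.928 and 1.99 CPM with ethanol (-1.47 ± 0.34, limma adjusted p = 0.0112), and it averaged -1.24 ± 0.20 over genotypes. Pole, the catalytic subunit of the leading-strand polymerase, averaged -1.10 ± 0.27 (limma adjusted p = 0.0065). With ethanol Pole reached 1 CPM only in overexpression replicate 1 (1.26 CPM), so it passed the filter only through the diet in which it was high. Its value describes this gene alone, and the count of fork genes called lower includes it. Chaf1b, of the histone chaperone that follows the fork, went up instead in the knockout, from 1.68, 4.06 and 2.09 CPM to 4.40, 6.68 and 11.6 CPM (1.21 ± 0.38, limma adjusted p = 0.0472), a call lost without pair-fed replicate 1 or 3 or ethanol replicate 2 or 3. Of 16 genes listed for origin licensing and firing, 3 were called lower and 0 higher. These were Cdt1, which loads the helicase (-0.81 ± 0.19, limma adjusted p = 0.0061), its inhibitor Gmnn or geminin (-0.79 ± 0.20, adjusted p = 0.0086), and Mcm9 (-0.55 ± 0.14, adjusted p = 0.0111).

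Of 10 G1 cyclin and kinase genes, 2 were called lower (Cdk2 and Cdc25a) and 1 higher (Myc). Cdk2, the kinase partner of cyclins E and A, was at 15.6, 27.2 and 24.9 CPM in control pair-fed libraries and at 15.3, 5.41 and 14.6 CPM with ethanol, and it averaged -0.87 ± 0.17 (limma adjusted p = 0.0016). Of 14 genes of the RB, E2F and DREAM group, 3 were called lower and 0 higher. They were Rbl2, a member of the RB family (-0.63 ± 0.14), Rbbp4, a histone-binding subunit of DREAM and of chromatin complexes (-0.47 ± 0.11), and the repressor E2f8 (-0.81 ± 0.27), whose call remained in 7 of 18 fits that left out 1 library. In the knockout E2f8 was at 3.92, 18.2 and 16.4 CPM pair-fed and at 1.65, 2.60 and 2.72 CPM with ethanol (-1.84 ± 0.46, limma adjusted p = 0.0165), a call lost without pair-fed replicate 2 or 3 or ethanol replicate 1.

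Of 5 tested CDK inhibitor genes, Cdkn1a, which encodes p21, was called higher with ethanol, at 27.7, 14.8 and 28.3 CPM pair-fed and 187, 277 and 46.2 CPM with ethanol in the control. Knockout libraries were at 7.47, 13.7 and 5.05 CPM pair-fed and at 341, 375 and 349 CPM with ethanol (5.29 ± 0.57, limma adjusted p = 3.9e-05), while with overexpression it was at 26.9, 111 and 20.7 CPM pair-fed, highest in the library that stood apart, and at 37.7, 18.97 and 29.5 CPM with ethanol (-0.51 ± 0.57, limma adjusted p = 0.742; response minus that of the knockout -5.80 ± 0.80, adjusted p = 0.0018). The Cdkn1a call remained in 3 of 6 fits that left out 1 library in the control, and in 6 of 6 in the knockout. With the Xist pattern as a term, Cdkn1a was not called in the control (limma adjusted p = 0.319) or the knockout (0.146), nor was that difference (0.305). Cdkn1c, which encodes p57, fell in the knockout, from 11.9, 5.98 and 6.44 CPM to 2.20, 2.04 and 2.72 CPM (-1.41 ± 0.40, limma adjusted p = 0.0301). That call was lost without pair-fed replicate 1 or 3 or ethanol replicate 1 or 2, and with the Xist pattern as a term the value was -0.27 (adjusted p = 0.961). Of 24 further genes listed for the spindle, kinetochore and cytokinesis, 5 were called lower and 0 higher (Spc24, Spc25, Ccnf, Cdca8 and Lmnb1). The list is broad, as Ccnf encodes a cyclin and Lmnb1 a nuclear lamin. Spc24 and Spc25 encode the 2 subunits by which the NDC80 complex holds to the kinetochore. Spc24 was at 51.6, 49.998 and 24.1 CPM in control pair-fed libraries and at 10.9, 22.02 and 17.5 CPM with ethanol. With overexpression it was at 40.1, 94.3 and 69.1 CPM pair-fed and at 19.1, 20.1 and 16.5 CPM with ethanol (-1.74 ± 0.39, limma adjusted p = 0.0348). Leaving out any library of these groups other than pair-fed replicate 1 ended that call, with a value of -1.46 (adjusted p = 0.121) without pair-fed replicate 2. These groups did not overlap in either genotype.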

How the data were processed

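RNA of mouse liver was measured in 18 libraries with a targeted amplicon panel. The authors deposited CPM values per gene, and per-library files of log2 values, which per the file headers came from ampliSeqRNA 5.10.1.2 and equal log2(CPM + 1). The name of the aligner or of the build is not given in the sources used here. Dividing each deposited CPM value by what 1 read is worth gave whole reads to within 0.02 (100.0% of values in each library), which recovered read counts and depth. No deposited per-sample column was left unused.

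The main test was limma 3.58.1 (R 4.3.3; lmFit and eBayes with a trend) on log2(CPM + 1), with 6 group means over all 18 libraries, on the 11720 genes at 1 CPM or more in at least 3 libraries, called at a Benjamini-Hochberg adjusted p under 0.05. A fold change on this scale understates the change of low genes. edgeR 4.0.16 (quasi-likelihood) on the recovered reads, other filters, pseudocounts and scalings, further model terms and leaving out libraries were alternatives. The fitting was tested on simulated data in which only genes with higher levels than the mitosis genes were changed. That test therefore does not cover genes as low as these.

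Named genes were those called in any contrast, the 3 per class with most reads, the 2 with the smallest adjusted p in each contrast of 2 groups, and Ccnd1, Mki67, Top2a, Cdk1, Pcna, Foxm1, E2f1 and Ccne1. Others were named for a lack of overlap or for their value in the library that stood apart, and these were chosen after their values were seen. The members, the pathway lists and the marker lists were chosen with earlier results of these data known. Items withheld from this text are counted in their lists and not reported here.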

Additional observations from a re-analysis of the deposited data

Results flagged for a closer look

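The ethanol response of Rrm2 differed between the overexpression and the knockout livers by -2.54 ± 0.43 on the log2 scale (limma, adjusted p = 0.0085 over all genes, n = 3 per group). All 3 knockout ethanol libraries lay above all knockout pair-fed libraries, while the groups overlapped with overexpression. The contrast was added after the values had been seen. In the knockout, diet and the Xist pattern cannot be told apart, and with that pattern as a term the difference was not called (adjusted p = 0.408).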

How the results depend on the processing

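No called gene changed direction under any alternative run, while some class medians changed sign when single libraries were left out. Of the recomputed results of called genes, 882 kept their call and 218 lost it. Of the medians and counts of calls, 889 recomputed values stayed within the spread or within 1.5 times, and 39 did not. With a term for the Xist pattern, the count of members called was 0 in the control, 0 in the knockout, 1 averaged over genotypes and 0 for the difference between the responses of overexpression and knockout livers, and the regulators' median was -0.96 for ethanol in the knockout and 0.31 for that difference. With a minimum of 10 CPM, 1 member was called for ethanol with overexpression (Tk1, adjusted p = 0.0483) and 3 averaged over genotypes, and the regulators' median had too few genes to give a value. With no filter, 2 were called in the average. With a pseudocount of 0.1, 1 member was called for ethanol with overexpression (Ccnb2, limma adjusted p = 0.0491), the mitosis median was -1.53 there and -1.37 for its interaction, and the regulators' median was 1.06 for overexpression against control pair-fed. With a pseudocount of 10 these medians were -0.20, -0.23 and 0.19, and 3 were called in the average. edgeR gave mitosis medians of -1.56 for ethanol with overexpression, 1.12 for overexpression against control pair-fed, -0.90 with ethanol and -1.83 for the interaction. With groups fitted alone, 1 member was called for overexpression against knockout with ethanol (Ccnd1, limma adjusted p = 0.0368). Leaving out both overexpression pair-fed replicates 1 and 2, an alternative chosen after seeing the data, left a single library in that group. The mitosis median for the difference between responses was then -0.011. The cause of these changes was not tested.

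Leaving out single libraries moved the count called in the average between 3 and 8 (8 without overexpression pair-fed replicate 1) and that for ethanol with overexpression between 0 and 1. It moved the S phase median between -0.95 and 0.0599 for ethanol with overexpression, between -0.13 and 0.74 for overexpression against control pair-fed, and between -0.44 and 0.25 for the interaction with overexpression. The mitosis median ran from -0.0154 to 0.94 for overexpression against control pair-fed and from -0.98 to 0.0043 for the difference between responses. The regulators' median ran from -0.81 to -0.12 for the interaction with the knockout and from -0.34 to 0.31 for the difference between responses.

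With the replicate block, 1, 3 and 4 members were called in the control, the knockout and the average (Rrm1 lost, limma adjusted p = 0.0602). Same-numbered libraries of different groups deviated together beyond 0.1 in 6 of 45 pairs of libraries (correlations of -0.267 to 0.279). The deviations gave no sign of pairing. The replicate number does follow the range of the sequencing barcode in the labels in 17 of 18 libraries.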
